A study of Mus musculus with 7 samples.

Results

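The Trim genes encode tripartite motif proteins, and 44 of them, Trim28 left out, were followed in single germinal vesicle (GV) oocytes with and without the H3K4 methyltransferase SETD1B. Members were the transcripts that the deposited expression table names after a Trim gene lying on the same strand. Of the 56 transcripts with such a name, 47 lay on the same strand and 9 on the opposite strand. Where a gene had several transcripts, the one with the highest mean over the libraries was kept. The 44 genes were among 15476 genes that the table names on their own strand. A further 24 Trim genes of the GENCODE annotation had no transcript of this kind and were not followed.

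Each library held the RNA of 1 GV oocyte, the fully grown oocyte arrested in meiotic prophase. The Setd1b cKO group had 4 libraries, from C57BL6 females that were Setd1b floxed/floxed and Gdf9-Cre positive. The Setd1b WT group had 3 libraries, from C57BL6 females that were Setd1b floxed/floxed and Gdf9-Cre negative, so by the labels both groups carried the floxed alleles and the Cre set them apart. The study's methods also count Cre-carrying heterozygous females as WT, and the labels name none. The methods give the background as C57BL/6OlaHsd. All females were 21 days old. Gdf9-Cre acts in the oocyte from early follicle growth, so the gene was intact before that stage. No label ties an oocyte to its mother, and the p-values therefore measure the spread between oocytes, some of which may come from the same female.

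Expression was given in RPM, reads per 1000000 mapped reads, which is a share of each library and not an amount per oocyte. Libraries held between 8582493 and 12972366 mapped reads, so that 1 read was worth 0.0771 to 0.117 RPM. Reads outside the quantified transcripts took 13.2% to 16.4% of the cKO libraries and 9.57% to 9.90% of the WT libraries, and the part of this difference in the results was tested only by another scaling. Setd1b itself was at 10.1 ± 6.04 RPM (SD, n = 4) in the cKO and 14.2 ± 4.89 RPM (SD, n = 3) in the WT (limma adjusted p = 0.533). This transcript includes sequence outside the floxed segment, so its level checked no label. The cKO replicate 4 and WT replicate 3 libraries were the least like their own groups. Pearson correlations of log2(RPM + 1) with the other cKO libraries were 0.907 to 0.932 for cKO replicate 4, against 0.962 to 0.968 among those. For WT replicate 3 they were 0.944 and 0.949 with the other WT libraries, against 0.973 between those, and 0.933 with cKO replicate 4. All 14 oocyte markers with a transcript were detected and summed to 26420 to 27555 RPM in the cKO and 32558 to 33412 RPM in the WT. Granulosa cell markers summed to 121 to 289 RPM in the cKO and 93.5 to 276 RPM in the WT, with Krt18 at 0 and Foxl2 and Amh among the 9 of 16 under 1 RPM, while Serpine2 (mean 117 RPM), Nr5a2 (34.1 RPM) and Cyp19a1 (25.001 RPM) were the highest and Inha was at 8.07 ± 5.63 RPM (SD, n = 4) in the cKO and 1.71 ± 2.29 RPM (SD, n = 3) in the WT (limma adjusted p = 0.225). Theca and stroma markers (8 measured) summed to 7.32 to 8.65 RPM in the cKO and 2.62 to 3.74 RPM in the WT. Of these 8, 7 had a mean under 1 RPM. The other, Dcn, was at 6.47 ± 0.920 RPM (SD, n = 4) in the cKO and 1.87 ± 1.12 RPM (SD, n = 3) in the WT. Leukocyte and endothelial markers (9 measured) summed to 20.5 to 39.9 RPM in the cKO and 25.9 to 33.7 RPM in the WT, with Lyz2, Cd74 and Tyrobp at 0. Of these lists, Mos fell among the oocyte markers (log2 fold change -1.34), and Dcn (1.45) and Cd68 (1.36) rose, past the threshold described below, the call of Cd68 being lost with voom. The part of these markers in the results was not tested.

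TRIM proteins share a RING finger, B-boxes and a coiled coil, and most of them act as E3 ubiquitin ligases, the enzymes that choose which protein receives ubiquitin. What follows the coiled coil divides the family: an SPRY domain in the largest class, NHL repeats in RNA-binding members such as TRIM71, a PHD finger with a bromodomain in the chromatin readers TRIM24 and TRIM33, and an ARF, MATH, filamin or transmembrane part in a few. Many SPRY members are known from innate immunity, and their genes lie in tandem arrays that differ between mammals.

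The start regions of 4 Trim transcripts are shown because the first 3 belong to the genes whose change passed the test and the last to their neighbour in the chromosome 7 array. Each is the RefSeq promoter window of GRCm38.p6, from 250 bases before to 50 bases after an annotated start, 5′ to 3′ on the gene's strand, with every CG in capitals. The windows lay at chr7:104218545-104218844 (plus strand, Trim6), chr7:104353300-104353599 (minus strand, Trim12c, whose start was 119 bases from that of the transcript named Trim5), chr11:115440295-115440594 (plus strand, Trim80) and chr7:104465144-104465443 (minus strand, Trim30a).
Trim6: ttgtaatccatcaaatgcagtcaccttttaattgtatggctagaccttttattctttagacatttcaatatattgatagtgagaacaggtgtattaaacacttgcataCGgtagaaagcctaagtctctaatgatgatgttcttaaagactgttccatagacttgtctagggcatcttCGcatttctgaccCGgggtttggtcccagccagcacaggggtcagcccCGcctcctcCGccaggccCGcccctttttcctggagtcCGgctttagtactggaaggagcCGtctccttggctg
Trim12c, start of the Trim5 transcript: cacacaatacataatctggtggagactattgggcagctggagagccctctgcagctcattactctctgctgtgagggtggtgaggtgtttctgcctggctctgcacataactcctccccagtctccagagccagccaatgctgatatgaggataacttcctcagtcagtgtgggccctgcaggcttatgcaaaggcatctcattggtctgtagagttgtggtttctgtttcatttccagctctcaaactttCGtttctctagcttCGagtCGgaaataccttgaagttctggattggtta
Trim80: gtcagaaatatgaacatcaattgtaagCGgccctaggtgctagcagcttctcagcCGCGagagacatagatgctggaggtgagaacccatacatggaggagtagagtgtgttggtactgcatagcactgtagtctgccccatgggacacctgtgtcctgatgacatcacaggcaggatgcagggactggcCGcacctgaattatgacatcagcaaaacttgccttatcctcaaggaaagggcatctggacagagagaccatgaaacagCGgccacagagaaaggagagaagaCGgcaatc
Trim30a: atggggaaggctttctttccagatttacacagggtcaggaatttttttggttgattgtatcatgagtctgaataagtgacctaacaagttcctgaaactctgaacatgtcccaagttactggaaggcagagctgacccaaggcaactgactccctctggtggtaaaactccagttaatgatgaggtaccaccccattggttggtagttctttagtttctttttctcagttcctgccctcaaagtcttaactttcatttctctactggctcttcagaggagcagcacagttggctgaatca

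The windows held 8 CG in Trim6, 3 in the Trim12c window, 6 in Trim80 and 0 in Trim30a. Over all 32851 RefSeq windows of this length the median was 7, and 56.5% held fewer than 10. Of the tested Trim transcripts, 11 began within 250 bases of an annotated start, and 7 of these 11 windows held fewer than 10 CG, with a median of 8. The core of the interferon-stimulated response element, searched as GAAA, 2 bases of any kind and GAAA again, was found on either strand in 3 of the 11 windows (Trim26, Trim30a and the Trim12c window) and in 3.44% of all windows. The letters TATAAA were found on either strand in 2 of the 11 (Trim13 and Trim31) and in 13.6% of all windows. These are matches of letters in a window and were not tested as sites.

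To ask how Trim expression differed without SETD1B, cKO and WT oocytes were compared over all 18179 transcripts that reached 1 RPM in at least 3 libraries. A gene was called when limma on log2(RPM + 1) gave a Benjamini-Hochberg adjusted p under 0.05 over all these transcripts and the change was over 2-fold. On this scale the fold change of a low transcript is understated. Of the 44 Trim genes, 25 were tested and 19 were too low. Trim6 and Trim5 rose in the cKO, 2 of 25 or 8%, beside 3.76% of all transcripts tested. Trim80 fell, 1 of 25 or 4%, beside 1.95% of all transcripts tested. Taken in both directions, 3 of 25 (12%) were called, beside 5.71% of all. The counts are small, and each of the 3 genes is described below with the libraries it rested on.

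The rest of the family spread to both sides. The median log2 fold change of the 25 genes was 0.03, beside 0.12 for all transcripts tested, and 13 genes (52%) were above 0, beside 60.3% of all. In 8 of the 25 genes (32%, beside 20.3% of all) the cKO and WT libraries did not overlap: 4 lay higher in every cKO library (13.2% of all transcripts did) and 4 lay lower (7.14% of all). At an unadjusted limma p under 0.05 there were 9 Trim genes, beside 21.7% of all transcripts.

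**Figure D1:**
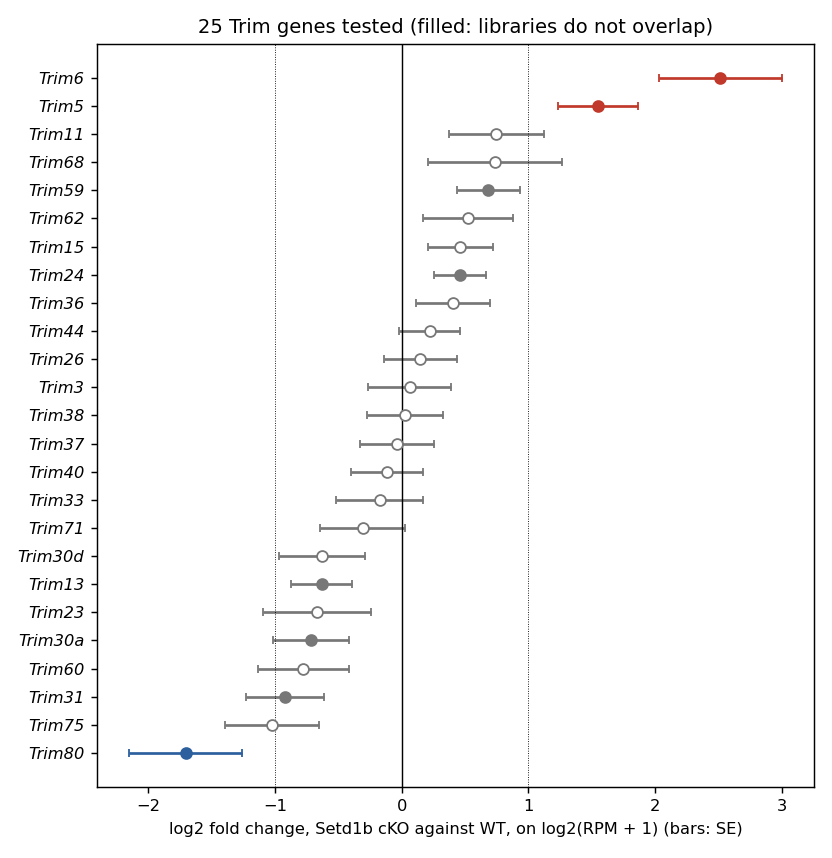
Log2 fold change of the 25 tested Trim genes, Setd1b cKO against WT, on the log2(RPM + 1) scale, with bars of 1 SE from limma and dotted lines at 2-fold. Red and blue mark the called genes, Trim6 (2.51), Trim5 (1.55) and Trim80 (-1.70), and filled points the 8 genes whose cKO and WT libraries did not overlap.

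SPRY genes were the largest class, with 20 members of which 12 were tested. Of these, 2 rose (3.76% of all transcripts did), 0 fell (1.95% of all) and 10 did not pass the test. The count of 2 is limited: Trim6 was tested only because it was high in the cKO, and the transcript named Trim5 covers several genes. The log2 fold change was above 0 in 8 and below in 4, beside 60.3% above 0 of all transcripts, and the median was 0.31, beside 0.12. Both genes that rose, Trim6 and Trim5, are neighbours on chromosome 7 in an array known for genes that act against retroviruses or in innate immune signalling.

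Trim6 (ENSMUSG00000072244, chr7:104218779-104235152, plus strand, GRCm38) encodes a ligase known for its part in interferon signalling, and it was nearly silent in WT oocytes. It was at 0.648, 0.231 and 0.936 RPM in WT replicates 1 to 3, the second value being 3 reads. In cKO replicates 1 to 4 it was at 8.21, 9.80, 17.6 and 2.56 RPM. Every cKO library lay above every WT library, and cKO replicate 4 was closest to them. The means were 9.54 ± 6.199 RPM (SD, n = 4) and 0.605 ± 0.354 RPM (SD, n = 3), a ratio of 15.8. The log2 fold change was 2.51 (limma SE 0.49, adjusted p = 0.0145). All WT libraries were under 1 RPM, so Trim6 passed the filter through the cKO libraries alone, the one tested member to do so, and its place in the count above rests on that. The increase was called in 17 of 20 alternative analyses. The call was lost without WT replicate 1 (adjusted p = 0.0561), without WT replicate 2 (0.0774) and with a count-type fit, voom on recovered reads (0.0898), all in limma. The log2 fold changes in these fits were 2.55, 2.33 and 3.90.

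Trim5 was the sixth most abundant Trim transcript by the mean over the libraries of both genotypes and was the other gene that rose. It was at 27.6, 52.6 and 66.2 RPM in the WT libraries and at 155, 99.6, 122 and 184 RPM in the cKO libraries, so the groups did not overlap. The means were 48.8 ± 19.6 RPM (SD, n = 3) and 140 ± 37.0 RPM (SD, n = 4), with a log2 fold change of 1.55 (limma SE 0.32, adjusted p = 0.0188). Cytoplasmic TRIM5 proteins are known as restriction factors that bind retroviral capsids. The mouse has several close copies, and the name of this transcript is uncertain: it runs from 104263386 to 104353468 on the minus strand of chromosome 7 and covers Trim5, Trim12a and Trim12c, and the span shared with Trim5 was 0.27 of the union. Reads of these copies were counted together. Without cKO replicate 1 (adjusted p = 0.0587), cKO replicate 3 (0.0517), WT replicate 1 (0.0737) or WT replicate 2 (0.0694) the limma call was lost, and in the other 16 of 20 alternatives it held.

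The array went on with 5 further members on the minus strand, within 317 kb of the Trim6 start. Trim30a, a gene known as a negative regulator of Toll-like receptor signalling, was at 34.7, 36.9 and 30.3 RPM in the WT and at 26.1, 28.4, 18.7 and 11.9 RPM in the cKO. All cKO libraries lay under all WT libraries, with means of 21.3 ± 7.51 (SD, n = 4) and 34.0 ± 3.36 RPM (SD, n = 3). The log2 fold change of -0.72 (SE 0.30) did not pass the test (limma adjusted p = 0.191). Its neighbour Trim30d had a log2 fold change of -0.63 (limma SE 0.34, adjusted p = 0.316). Trim30b, Trim30c and Trim30e-ps1 had 0 reads in all 7 libraries, which allows up to 0.231 to 0.350 RPM per library at 3 reads. For Trim30b and Trim30c this holds only for short transcripts whose spans were 0.060 and 0.0062 of the union with the gene. Within this array, then, the genes nearest to one end were higher and the detected genes toward the other end had lower means, of which only the first pair passed the test.

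**Figure D2:**
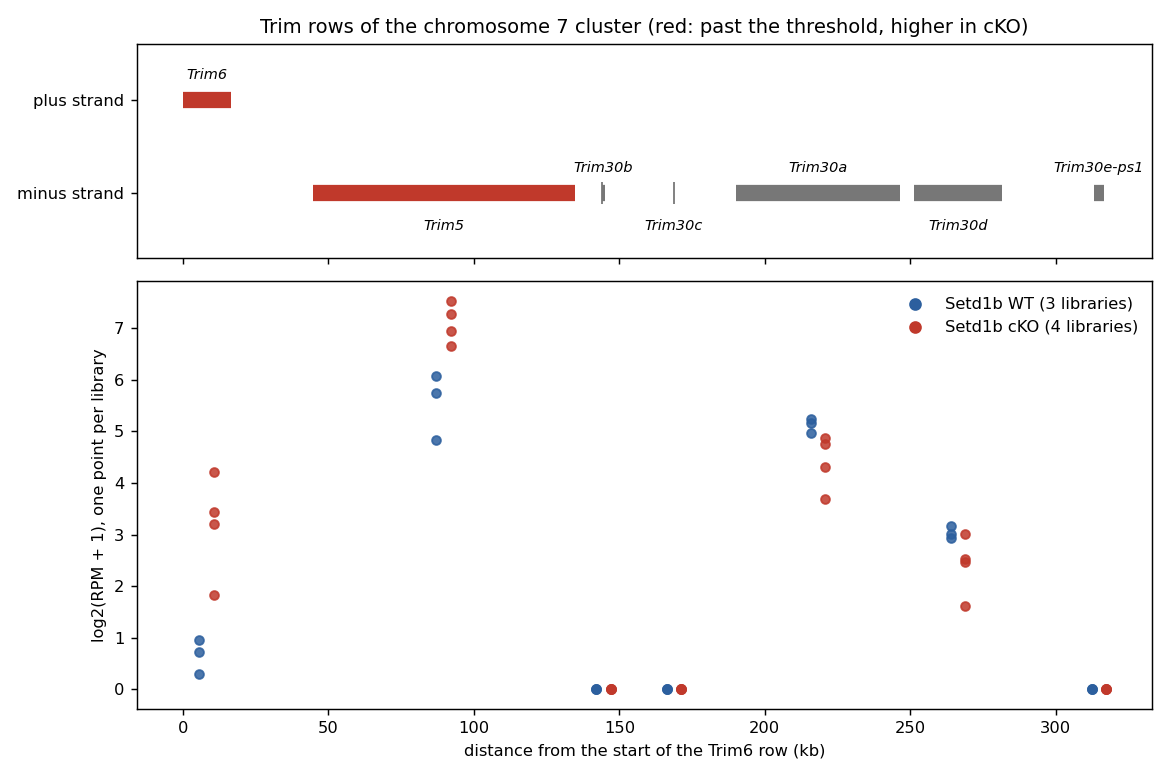
The chromosome 7 array of 7 Trim transcripts: the upper panel shows each transcript by its distance in kb from the Trim6 start (red: called, higher in cKO), and the lower panel log2(RPM + 1) in each library, WT in blue and cKO in red. Trim6 and the transcript named Trim5 lie higher in every cKO library, Trim30a lies lower in every cKO library without passing the test, and Trim30b, Trim30c and Trim30e-ps1 are at 0.

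Trim60 and Trim75, SPRY genes whose transcripts lie within 40.2 kb on the minus strand of chromosome 8, were among the most abundant members. Trim60 was at 1794, 1547 and 1073 RPM in the WT and at 1242, 1178, 750 and 455 RPM in the cKO. The means were 1471 ± 366 (SD, n = 3) and 906 ± 372 RPM (SD, n = 4), and the libraries overlapped. The log2 fold change was -0.77 (limma SE 0.36, adjusted p = 0.241), and the transcript also covers Trim61, so their reads cannot be told apart.

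Trim75 was at 242, 156 and 110 RPM in the WT and at 109, 120, 63.8 and 45.2 RPM in the cKO. Only cKO replicate 2 reached into the WT range. The means were 169 ± 67.2 (SD, n = 3) and 84.5 ± 35.8 RPM (SD, n = 4), with a log2 fold change of -1.02 (limma SE 0.37, adjusted p = 0.135). With both cKO replicate 4 and WT replicate 3 left out, an alternative chosen after seeing the data, Trim75 passed the test at -1.04 (limma adjusted p = 0.0233), and it did so in none of the other 19 alternatives, the replicate block giving 0.0387 at a change of -0.76, under 2-fold.

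Chromosome 17 held the third array, 5 genes within 74.3 kb of which 4 were tested. Trim15, an SPRY gene, was at 26.3, 29.8 and 33.1 RPM in the WT and at 33.1, 31.5, 53.0 and 52.0 RPM in the cKO. The cKO values formed a lower and a higher pair, the lower one inside the WT range, and the log2 fold change of 0.46 (SE 0.25) did not pass the test (limma adjusted p = 0.329). Trim31, a ligase known to act on the antiviral adaptor MAVS, was lower in every cKO library, at 6.04, 7.17, 3.22 and 3.85 RPM against 9.07, 12.5 and 8.98 RPM. Its means were 5.07 ± 1.85 (SD, n = 4) and 10.2 ± 2.00 RPM (SD, n = 3), and its log2 fold change of -0.92 (SE 0.31) did not pass the test either (limma adjusted p = 0.109). Trim26 and Trim40 had log2 fold changes of 0.15 and -0.11, and Trim10 was under the filter.

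The other SPRY genes tested were Trim11, Trim68, Trim62 and Trim38, with log2 fold changes of 0.75, 0.73, 0.52 and 0.03, and none of them passed the test. Trim68 rested on single libraries, with 0.047 without WT replicate 3 and 1.28 without WT replicate 1. In Trim11 the cKO libraries divided, with 8.02 and 7.66 RPM in replicates 1 and 2 and 19.9 and 20.7 RPM in replicates 3 and 4, against 6.32 to 8.33 RPM in the WT. Trim62 overlaps at its end an antisense transcript whose values followed its own in each library. In cKO replicates 1 to 4 the antisense transcript had 5.25, 5.35, 8.71 and 11.3 RPM, and Trim62 had 5.44, 6.51, 9.14 and 11.3 RPM. In WT replicates 1 to 3 the antisense transcript had 2.75, 3.47 and 8.61 RPM, and Trim62 had 3.40, 4.24 and 8.98 RPM. The methods are silent on strand in counting, so the reads of the pair cannot be told apart.

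**Figure D3:**
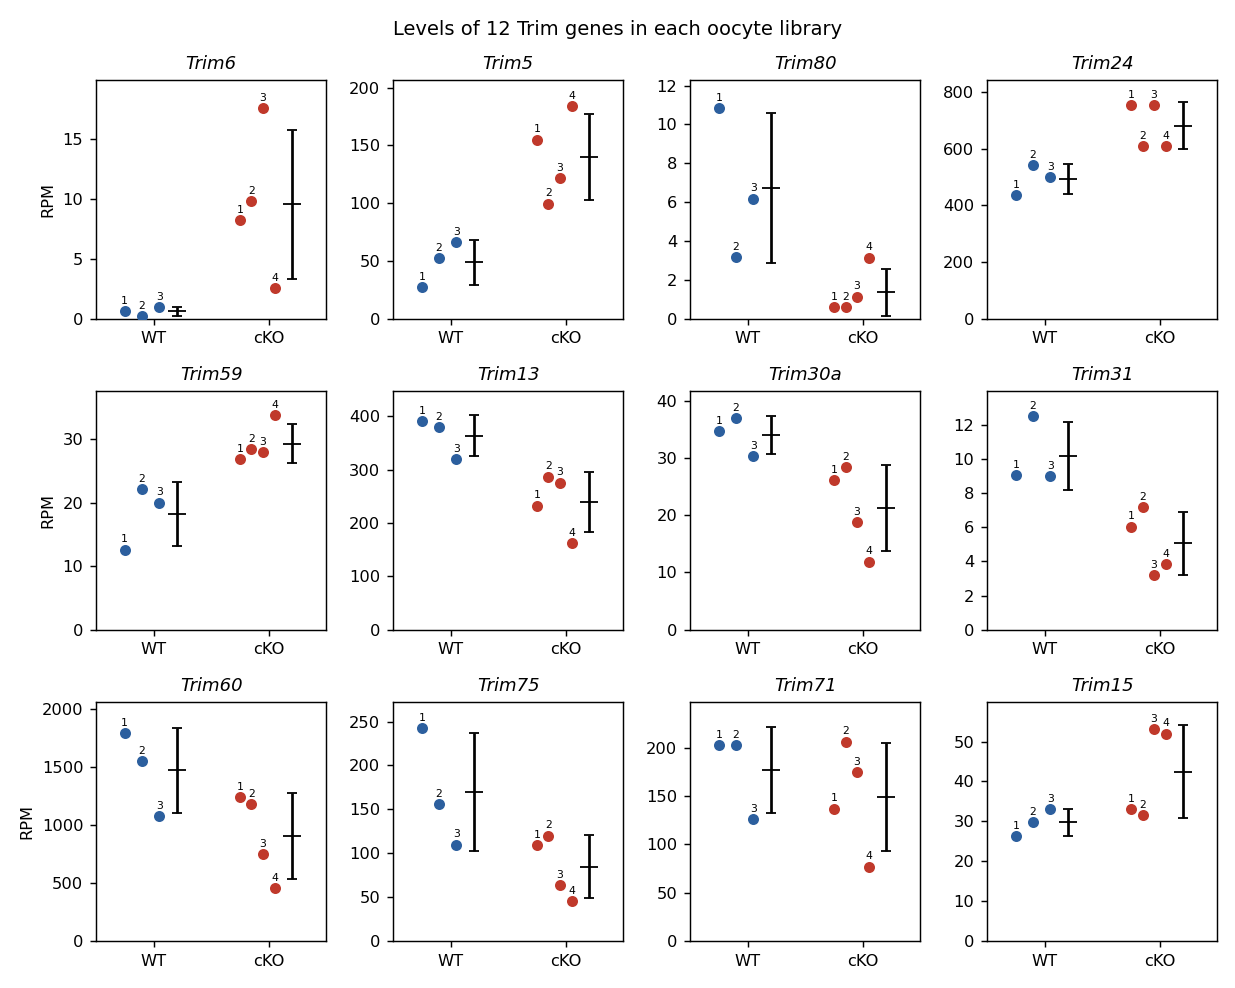
RPM of 12 Trim genes in each library, WT in blue and cKO in red, numbered by replicate, with the mean and SD at the right of each group (n = 3 and n = 4). Trim6, Trim5, Trim24 and Trim59 lie higher in every cKO library and Trim80, Trim13, Trim30a and Trim31 lower, while Trim60, Trim75, Trim71 and Trim15 overlap.

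Of the PHD-bromodomain genes, Trim24 and Trim33 were tested and neither passed. TRIM24 reads histone H3 tails, is known as a coregulator of nuclear receptors and a ligase for p53, and was the second most abundant member. Trim24 was at 438, 543 and 500 RPM in the WT and at 754, 610, 755 and 611 RPM in the cKO. The libraries did not overlap, the means being 494 ± 53.0 (SD, n = 3) and 682 ± 83.3 RPM (SD, n = 4). The difference was small, with a log2 fold change of 0.46 (limma SE 0.21, adjusted p = 0.223). Trim33, which acts on SMAD4 in TGF-beta signalling, had a log2 fold change of -0.17, and Trim66 had 1 library with a read.

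The NHL genes Trim71 and Trim3 did not pass the test. TRIM71, the mammalian LIN-41, represses mRNAs through its NHL repeats, and Trim71 was at 203, 203 and 126 RPM in the WT and at 137, 206, 175 and 76.8 RPM in the cKO. The groups overlapped, with means of 177 ± 44.5 (SD, n = 3) and 149 ± 55.6 RPM (SD, n = 4) and a log2 fold change of -0.31 (limma SE 0.33, adjusted p = 0.664), which was -0.0230 without cKO replicate 4 and -0.54 without WT replicate 3. A transcript on the opposite strand, named after the same gene, had 74.2 to 143 RPM, and as with Trim62 the reads of the pair cannot be told apart. Trim3 had a log2 fold change of 0.06, and the transcript named Trim2, whose span was 0.091 of the union with the gene, had 0 reads.

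The transmembrane genes went in opposite directions, neither past the test. Trim13, whose protein sits in the endoplasmic reticulum membrane and is known from the degradation of proteins there, was at 391, 380 and 319 RPM in the WT and at 233, 287, 276 and 162 RPM in the cKO. All cKO libraries were lower, with means of 239 ± 56.7 (SD, n = 4) and 363 ± 38.8 RPM (SD, n = 3) and a log2 fold change of -0.63 (limma SE 0.24, adjusted p = 0.156). The transcript also overlaps Kcnrg on the same strand. Trim59 was higher in every cKO library, at 26.9, 28.4, 28.0 and 33.8 RPM against 12.6, 22.1 and 20.02 RPM. Its means were 29.3 ± 3.07 (SD, n = 4) and 18.3 ± 4.98 RPM (SD, n = 3), with a log2 fold change of 0.68 (limma SE 0.25, adjusted p = 0.133).

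Trim80 (ENSMUSG00000070332, chr11:115440545-115451554, plus strand, GRCm38), which was placed in no domain class here, was the gene that fell. It was at 10.9, 3.16 and 6.17 RPM in the WT and at 0.594, 0.576, 1.13 and 3.15 RPM in the cKO. The groups did not overlap, but the highest cKO library and the lowest WT library were nearly level. The means were 6.73 ± 3.88 (SD, n = 3) and 1.36 ± 1.22 RPM (SD, n = 4), and the log2 fold change was -1.70 (limma SE 0.44, adjusted p = 0.0476). The call was close to the threshold and held in 7 of 19 alternatives, over which the log2 fold change ran from -2.52 to -0.85. Without any one library other than cKO replicate 4 it was lost, with limma adjusted p from 0.0604 to 0.183, and without cKO replicate 4 it was 0.0104.

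Members of the small classes did not pass the test. Trim37, the MATH gene of a ligase that acts at the centrosome and in peroxisomes, had a log2 fold change of -0.04, the COS-FN3-SPRY gene Trim36 had 0.41, and Trim44, whose protein has no RING finger, had 0.22. Trim23, the ARF gene, had -0.67, with a range from 4.54 to 13.7 RPM in the cKO and from 8.14 to 24.4 RPM in the WT.

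**Figure D4:**
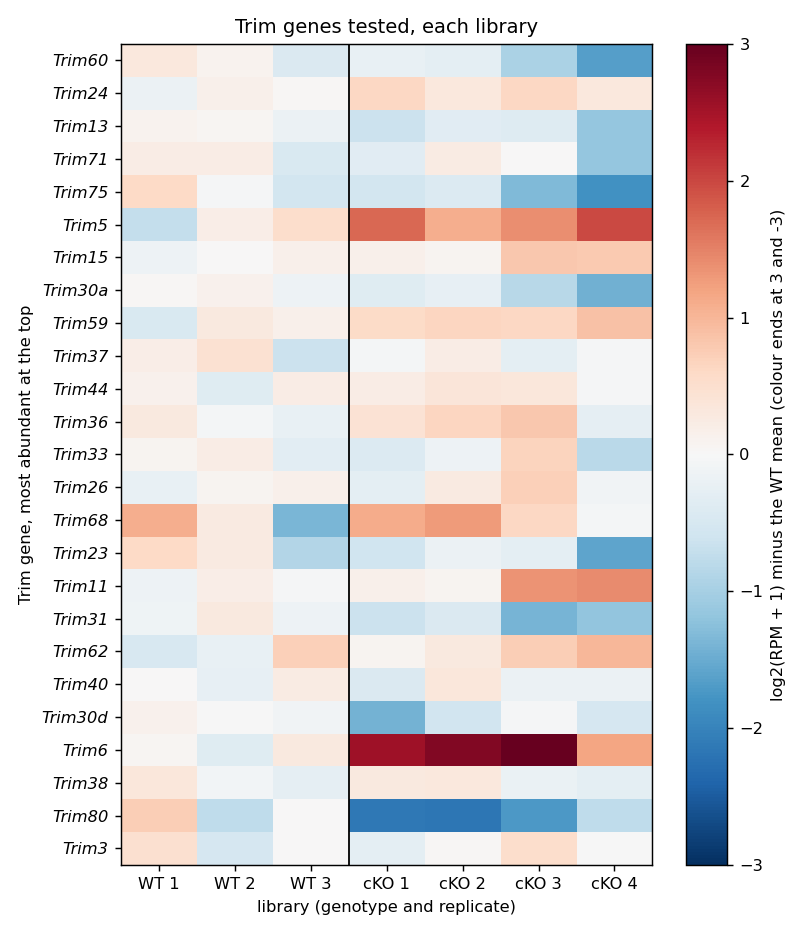
Difference of log2(RPM + 1) from the WT mean for the 25 tested Trim genes (most abundant at the top) in each of the 7 libraries, red higher and blue lower, colours ending at 3 and -3. Trim6 and Trim5 are red and Trim80 blue in every cKO library, and cKO replicate 4 is the lowest cKO library in 12 of 25 genes.

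The family's reads were concentrated in few genes. Trim60 alone held 44.3% to 53.3% of the summed Trim RPM in the WT libraries and 25.6% to 43.1% in the cKO libraries, and the 8 most abundant genes held 92.5% of the summed mean. The sum over the 44 genes was 3365, 3142 and 2421 RPM in the WT and 2880, 2789, 2466 and 1777 RPM in the cKO, so that it overlapped between the genotypes. Of the 25 tested genes, 6 had a mean of at least 100 RPM, 11 lay between 10 and 100 RPM and 8 were under 10 RPM.

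Per kb of exon, levels could be set beside each other. In the WT, Trim60 was at 551 ± 137 and Trim13 at 220 ± 23.5 RPM per kb (SD, n = 3), but their transcripts also overlap Trim61 and Kcnrg, so their places in the order are uncertain. Of the other abundant genes Trim24 was highest at 57.9 ± 6.21 RPM per kb (SD, n = 3). Trim75 followed at 48.6 ± 19.3 RPM per kb, which did not differ from Trim24 beyond the spread. Trim71 (19.0 ± 4.77 RPM per kb, with the same limit on its antisense reads) and Trim15 (15.2 ± 1.73 RPM per kb) did not differ beyond theirs, and Trim30a was at 8.26 ± 0.817 RPM per kb (SD, n = 3). In the cKO, Trim24 at 80.1 ± 9.77 RPM per kb stood well above Trim75 at 24.3 ± 10.3 RPM per kb (SD, n = 4). The transcript named Trim5 was left out of this order because it covers several genes.

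Within each genotype the libraries did not rank evenly. Of the 25 tested genes, cKO replicate 4 was the lowest cKO library in 12, against 6, 5 and 2 for replicates 1 to 3, and the highest in 5, and WT replicate 3 was the lowest WT library in 13, against 7 and 5 for replicates 1 and 2. These counts cover the Trim genes only. Over all transcripts tested, cKO replicate 4 and WT replicate 3 were also the libraries least like their groups. With both left out, a choice made after seeing the data, the log2 fold changes were 3.11 for Trim6, 1.67 for Trim5 and -2.005 for Trim80. The limma adjusted p were 0.000194, 0.00126 and 0.00881. Because the libraries left out stood apart in these same data, the smaller p-values are no added support for the calls. Among all transcripts 1015 were then higher and 522 lower, beside 683 and 355 with every library kept.

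The 19 genes that were not tested were Trim2, Trim8, Trim10, Trim14, Trim21, Trim25, Trim29, Trim30b, Trim30c, Trim30e-ps1, Trim43a, Trim45, Trim47, Trim50, Trim52, Trim54, Trim56, Trim66 and Trim67. They include Trim21, the cytosolic antibody receptor, and Trim25, the ligase that activates the RNA sensor RIG-I. In 5 of them, Trim2, Trim21, Trim30b, Trim30c and Trim30e-ps1, no library had a read, and the highest value of any was 2.18 RPM. The transcripts named Trim2, Trim30b, Trim30c, Trim47, Trim52 and Trim67 shared under 0.5 of the union of spans with their gene, so their values are not those of the whole gene. Trim45, the filamin-domain member, was chosen after its values were seen. It had 8, 4, 4 and 8 reads in the cKO libraries and 0 in the WT libraries, which is 0.567 RPM over the pooled cKO against a limit of 0.0833 RPM that 3 reads over the pooled WT allow. That is 6.81-fold, with the cKO reads taken at face value and only the WT given a limit. Under the filter Trim45 had no test. Without the filter limma called 2 Trim genes higher, Trim6 and Trim5, so Trim45 was not called. The transcript named Trim47 covers the span of Trim65 and is uncertain.

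Other lists of genes around the family are read against the shares over all transcripts, 5.71% called and 21.7% at an unadjusted limma p under 0.05. Of 12 tripartite motif relatives without a Trim symbol, 7 had a transcript and were tested, and limma called 0 of 7 (beside 5.71%), as did voom, and 4 of 7 had an unadjusted p under 0.05 (beside 21.7%). The median log2 fold change was -0.65, beside 0.12 for all transcripts. The most abundant, Rfpl4, an oocyte gene of the ret finger protein-like group, was at 1133 ± 214 RPM (SD, n = 4) in the cKO and 1768 ± 229 RPM (SD, n = 3) in the WT (limma adjusted p = 0.138). Cmya5 had a limma adjusted p of 0.0341 at a log2 fold change of -0.81, under 2-fold.

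Of 17 E1 and E2 enzymes that hand ubiquitin to RING ligases, 11 were tested. Ube2e2 rose, from 31.9 ± 7.14 RPM (SD, n = 3) in the WT to 182 ± 49.5 RPM (SD, n = 4) in the cKO (log2 fold change 2.45, limma SE 0.27, adjusted p = 0.00233), 0 fell and 10 did not pass, with a median of -0.06. At an unadjusted limma p under 0.05 there were 2 of 11, beside 21.7% of all. Ube2w, Ube2k and Ube2n, the most abundant of the others, had log2 fold changes of 0.17, -0.23 and -0.16.

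Of 35 genes of RNA and DNA sensing and interferon signalling, 14 had a transcript and 10 were tested, with 0 called by limma, beside 5.71% of all, and a median of -0.01. The unadjusted limma p was under 0.05 in 4 of 10, beside 21.7% of all, and voom called 1, Mavs. Among these 4, Ifngr1 passed the filter through the cKO libraries alone. Mavs, the mitochondrial adaptor of RNA sensing, had a log2 fold change of -0.98 (limma SE 0.24, adjusted p = 0.0401), under 2-fold. Of 21 known partners and substrates of the chromatin and NHL members, 15 were tested. Rarb, a retinoic acid receptor, rose from 0.0270 ± 0.0468 RPM (SD, n = 3), a single read in the WT, to 1.42 ± 0.308 RPM (SD, n = 4), with a log2 fold change of 1.23 and a limma adjusted p of 0.0218, and 0 fell, the median being 0.10. Rarb passed the filter through cKO replicates 2 to 4 alone, so it was tested only because it was high there. In this list 3 of 15 had an unadjusted limma p under 0.05, beside 21.7% of all. Usp7, Smad2 and Ago3, the most abundant of this list, had log2 fold changes of 0.04, 0.10 and 0.34.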

How the data were processed

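Single-read libraries of 7 single GV oocytes (4 Setd1b cKO, 3 Setd1b WT) were analysed from the table the authors deposited, whose values are log2 RPM per transcript. After trimming with trim galore, the authors aligned reads to GRCm38 with Hisat, using annotated splice sites, and dropped alignments with a mapping quality under 20, which can lose reads shared by near-identical Trim copies. They then quantified oocyte transcripts from an earlier assembly in SeqMonk, with isoforms merged. The submitters' processing notes also list bcl2fastq 1.8.4 and featureCounts 1.4.4. Whether strand was used in counting is not given in the sources used here. The study's own test was for counts.

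Deposited values were turned back into RPM, with 0.9 read standing for 0 reads. The value of 1 read per library gave whole reads for 99.96% to 99.99% of values within 0.02 read. No library was left out, no pair of libraries agreed within sampling noise (chi-square per degree of freedom at least 14.0), and 0 value columns were unmapped. Groups and replicate numbers came from the labels. Transcripts reaching 1 RPM in 3 or more libraries were tested on log2(RPM + 1) with limma 3.58.1 (eBayes with trend, R 4.3.3), and p-values were adjusted over all 18179. The test was also tried on simulated reads. Their noise was independent between libraries and capped per gene, so that trial does not vouch for the test on these libraries. Alternatives were other pseudocounts (0.1 and 5 RPM), the deposited log2 scale, no filter or a mean of at least 4 RPM, other scalings, voom on recovered reads, leaving out each library, a replicate block, and, added after seeing the data, cKO replicate 4 and WT replicate 3 left out together and Trim genes named by their span.

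Gene spans, exon lengths and overlapping genes were taken from GENCODE M21 and start regions from RefSeq, both on GRCm38, and domain classes were assigned from general knowledge of the family. Values in every library are given for Trim genes that were called, whose libraries did not overlap or that were among the 8 most abundant, and of gene lists the called members and at most 3 others. Trim11, Trim23, Trim62, Trim68 and Trim45, Ifngr1, and the markers named to describe the cells go beyond this rule and were named after their values were seen. The Trim genes, classes, gene lists and tests were chosen with earlier results of these data known. Intervals and limits from read counts cover counting error only.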

Additional observations from a re-analysis of the deposited data

How the results depend on the processing

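Of 498 values of tested Trim genes under the alternatives, 458 kept their direction and their side of the threshold, 19 kept their direction and lost the call, 1 (Trim75) gained it, and 20 changed sign, in 6 genes whose log2 fold change lay between -0.17 and 0.15. Centring on the median gene turned Trim26 (-0.0075), Trim3 (-0.0907) and Trim38 (-0.13), and quantile normalisation turned Trim3 (-0.16) and Trim38 (-0.18). Scaling by the reads within transcripts turned Trim37 (0.0385), the replicate block, which drops cKO replicate 4, gave Trim33 0.0370, the same value as leaving out that library alone, and leaving out cKO replicate 4 and WT replicate 3 together turned Trim40 (0.0300). With 1 library left out, Trim26 ran from -0.0448 to 0.30, Trim3 from -0.18 to 0.30, Trim33 from -0.46 to 0.0370, Trim37 from -0.37 to 0.19, Trim38 from -0.10 to 0.20 and Trim40 from -0.26 to 0.0052. Without changing sign, single libraries moved the log2 fold changes of uncalled genes by over 1.5 times in Trim71 (-0.54 to -0.0230), Trim44 (0.0418 to 0.34), Trim68 (0.0471 to 1.28), Trim23 (-1.10 to -0.36), Trim62 (0.29 to 0.88), Trim30d (-0.83 to -0.37), Trim60 (-0.99 to -0.48), Trim36 (0.27 to 0.63), Trim59 (0.45 to 0.83) and Trim30a (-0.87 to -0.48). The cause was not tested.

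The number of Trim genes called higher (2) was 1 with voom and 0 to 2 with 1 library left out. The number called lower (1, Trim80) was 0 with a pseudocount of 0.1 or 5 RPM, with the deposited log2 values, without a filter, with the reads within transcripts as scale and with voom. It was 0 with a mean of at least 4 RPM because Trim80 was then not tested. It was 0 to 1 with 1 library left out and 2 with cKO replicate 4 and WT replicate 3 left out. Over all transcripts, the 683 higher became 315 with a pseudocount of 5 RPM, 396 without a filter, 428 with quantile normalisation, 443 with voom and 172 to 857 with 1 library left out, and the 355 lower became 117 to 435. The share of higher calls, 65.8%, was 46.3% after centring and 49.2% after quantile normalisation, which moved the median log2 fold change of all transcripts from 0.12 to -0.03 and 0.01. Higher calls held 72.9% with the reads within transcripts as scale.

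The replicate block, which dropped cKO replicate 4 because no WT library shares its number, gave 2 Trim genes higher and 1 lower, and 924 and 479 over all transcripts. It changed no Trim call. The numbers did not pair the samples: the correlations of deviations from the group means were 0.19, 0.29 and -0.13 for numbers 1 to 3. Of the cKO replicates 1 to 3, only the first correlated best with the WT library of its own number. With 1 read worth 0.0771 to 0.117 RPM, genes under the 1 RPM filter were given no test in the main fit. The alternative without a filter covered 29375 transcripts and called 2 Trim genes higher, Trim6 and Trim5, and 0 lower.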

Other observations

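Some Trim genes had a transcript on their own strand that the table names after another gene, and they were therefore not among the 44. When Trim genes were instead named by the best overlap of their GENCODE span, at least 0.5 of the union, 45 genes had a transcript and 30 were tested, of which 2 (Trim6 and Trim35) were higher and 1 (Trim80) was lower past the same threshold, beside 3.76% higher and 1.95% lower of all transcripts. The transcript named Trim5 dropped out under this naming. Trim35, an SPRY gene whose transcript carries the name 1700001G11Rik, was at 1.30, 3.08 and 0 RPM in the WT and at 6.04, 9.72, 12.5 and 7.46 RPM in the cKO. Every cKO library lay above every WT library, with means of 8.92 ± 2.80 (SD, n = 4) and 1.46 ± 1.55 RPM (SD, n = 3) and a log2 fold change of 2.19 (limma SE 0.45, adjusted p = 0.0187). Its call was not followed through the alternatives, and its place as Trim35 rests on the span alone. Trim27, Trim32, Trim39, Trim41 and Trim72, also found only by span, had log2 fold changes of -0.39, 0.75, 0.08, -0.26 and 0.56, and none of them passed the test. This naming was added after the data had been seen.

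In 0 of the 25 tested Trim genes did a single cKO library stand apart from the other 3 by Dixon's 95% criterion, where chance gives about 1.25 such genes. The WT group, with 3 libraries, was too small for this.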
